A study of Mus musculus with 2 samples.

Results

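The genes described here are the pseudogenes detected in newborn mouse heart. They were chosen by their annotation and their level: a gene qualified when its type in GENCODE M21 contained the word pseudogene and its deposited TPM was 1 or more in both replicates. TPM is a read count divided by the usable length of the gene and then scaled so that every library has the same total. Of 7906 annotated pseudogenes among the 43346 genes of the tables, 135 met the rule, a share of 1.71%. The same threshold was met by 10112 of 21474 protein-coding genes, a share of 47.1%. The members comprised 96 processed, 18 transcribed processed, 10 unprocessed and 9 transcribed unprocessed pseudogenes, 1 polymorphic pseudogene and 1 with no further class. Because TPM in both replicates selected the members, their levels are a description and were not tested.

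The study measured total RNA of hearts from healthy newborn mice of strain B6NTac;B6NCrl/Lap, at an age of 0 days and with both sexes pooled. There was 1 group with 2 biological replicates, made from independent isolates of heart tissue and carrying the same donor label, with no treatment or mutant allele named. Hearts of 15 mice went into replicate 1, while the labels name no number of mice for replicate 2. RNA longer than 200 nucleotides was depleted of ribosomal RNA and sequenced as strand-specific paired reads, with spike-in RNAs added.

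A pseudogene is a copy of a gene that has lost, or is presumed to have lost, the ability to encode the full protein. Processed pseudogenes arise when a messenger RNA is copied back into DNA and inserted elsewhere in the genome, so they lack the introns of the source gene and are most numerous for genes with abundant messenger RNA. Unprocessed pseudogenes arise by duplication of DNA, and a particular kind are nuclear copies of stretches of the mitochondrial genome. A short read from a recent copy can match the source gene as well as the copy, so a program that assigns reads to genes has to divide such reads between both by an estimate.

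The source of each member was taken as the protein-coding gene whose transcripts gave the best match on the sense strand. The sequences below show the degrees of likeness on which the later results turn, as 60-base stretches of the GENCODE M21 transcripts within the coding sequence of the source gene. Each is written 5′ to 3′ with the pseudogene first, and capitals mark bases that differ within a pair. Positions in substitutions count from 1 at the first base of the source's coding sequence, with the source's base first.
Gm12671 (GRCm38 chr4:91852610-91852669, minus strand): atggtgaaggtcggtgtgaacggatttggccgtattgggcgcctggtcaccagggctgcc
Gapdh (chr6:125163400-125165293, minus strand, across an intron): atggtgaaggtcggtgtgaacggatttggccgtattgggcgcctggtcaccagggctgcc
Gm5559 (chr5:95862068-95862127, plus strand): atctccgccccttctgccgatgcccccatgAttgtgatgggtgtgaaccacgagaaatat
Gapdh (chr6:125162948-125163007, minus strand): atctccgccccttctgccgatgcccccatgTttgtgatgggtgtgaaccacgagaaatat
Gm12033 (chr11:20335481-20335540, minus strand): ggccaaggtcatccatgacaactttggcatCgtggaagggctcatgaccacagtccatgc
Gapdh (chr6:125162695-125162888, minus strand, across an intron): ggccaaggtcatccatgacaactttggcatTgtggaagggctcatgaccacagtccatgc
Gm28438 (chr1:24613060-24613119, minus strand): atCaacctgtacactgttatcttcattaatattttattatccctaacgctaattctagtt
mt-Nd3 (chrM:9459-9518, plus strand): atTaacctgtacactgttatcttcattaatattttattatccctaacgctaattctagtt
Gm6055 (chr14:48079518-48079577, minus strand): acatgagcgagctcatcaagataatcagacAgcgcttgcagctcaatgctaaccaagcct
Map1lc3b (chr8:121596065-121596627, plus strand, across an intron): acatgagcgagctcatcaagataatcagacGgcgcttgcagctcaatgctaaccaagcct
Gm2962 (chr1:170925406-170925465, minus strand): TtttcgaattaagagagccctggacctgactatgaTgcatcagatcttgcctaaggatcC
Uqcrb (chr13:66901421-66901480, minus strand): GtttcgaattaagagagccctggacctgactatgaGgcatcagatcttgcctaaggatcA
Rps4l (chr6:148355184-148355243, plus strand): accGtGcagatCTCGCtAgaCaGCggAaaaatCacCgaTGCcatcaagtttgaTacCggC
Rps4x (chrX:102185659-102186453, minus strand, across an intron): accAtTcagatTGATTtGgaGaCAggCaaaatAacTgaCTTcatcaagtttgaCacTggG
Gm12671 was identical to Gapdh over all of its 1002 bases. Gm5559 and Gm12033, also 1002 bases long, differed from Gapdh by 1 base each, T385A in Gm5559 and T504C in Gm12033. Gm28438 differed from mt-Nd3 by T3C alone over 345 bases, and Gm6055 from Map1lc3b by G206A alone over 378 bases. Gm2962 differed from Uqcrb by 6 substitutions over 336 bases, of which G180T, G215T and A239C lie in the stretch shown. Rps4l carried 162 substitutions over 811 aligned bases of Rps4x, 20 of them in the stretch shown.

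Expected counts, the program's estimate of fragments per gene, summed over genes to 69946215 in replicate 1 and 73615802 in replicate 2. All 7 heart muscle markers were detected, from Nkx2-5 at 90.2 and 71.9 TPM to Actc1 at 5636 and 5468 TPM in replicates 1 and 2. Among 5 markers of other organs, Alb of liver was found at 8.35 and 8.22 TPM, Sftpc of lung at 1.12 and 0 TPM, Gfap of brain at 0.12 and 0 TPM, and Ins2 of pancreas and Umod of kidney at 0 in both. In bulk tissue, fewer cells of a type and less RNA per cell cannot be told apart. With 1 group of 2 replicates there is no comparison between conditions and no p-value, and differences are given as replicate 1 minus replicate 2.

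The members together held 13678 TPM in replicate 1 and 15963 TPM in replicate 2, or 1.37% and 1.60% of all TPM. They held a smaller share of the expected counts of genes, 0.711% in replicate 1 and 0.810% in replicate 2. By mean TPM, 54 members lay under 5 TPM, 65 between 5 and 50 TPM and 16 at 50 TPM or more. The median member had 6.13 TPM in replicate 1 and 7.02 TPM in replicate 2, against 7.36 and 7.63 TPM for detected protein-coding genes. Members were short: their median effective length, the number of positions at which a fragment can start, was 398 nucleotides in replicate 1 and 399 in replicate 2, against 2235 and 2193 for detected protein-coding genes. For 12 members it was under 100 nucleotides, where TPM per fragment is large.

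Most annotated pseudogenes gave no signal, 7012 of them having 0 counts in both replicates. A further 55 reached 1 TPM in replicate 1 alone and 59 in replicate 2 alone. Just inside the threshold lay Gm10254 at 1.00 and 1.36 TPM, Gm11400 at 1.10 and 1.02 TPM and Gm15429 at 2.80 and 1.01 TPM. Just outside it lay Dynlt1-ps1 at 0.99 and 1.34 TPM, Rpl6l at 0.98 and 0.96 TPM and Gm1840 at 0.89 and 1.25 TPM. The lower bound of the deposited TPM interval, whose level is not given in the sources used here, fell under 1 TPM in at least 1 replicate for 23 members. On the posterior mean TPM in place of TPM, 592 pseudogenes reached 1 in both replicates. Posterior mean TPM can lie above TPM at nearly equal counts, so the 592 need not be pseudogenes with more reads. The cause of the larger count was not tested. In replicate 2 Gm10177, a member on either estimate, had a posterior mean count of 340 and an expected count of 341. Its posterior mean TPM there was 26.7, against 19.7 TPM. Its second transcript had an effective length of 1.25 nucleotides there and 0 expected counts.

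**Figure D1:**
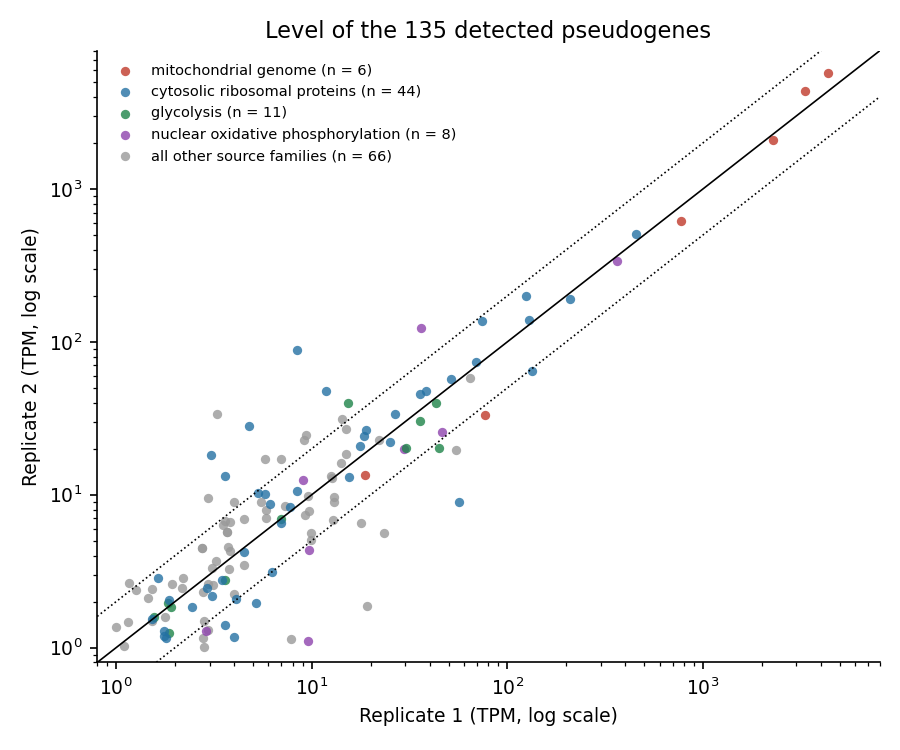
TPM in replicate 1 (horizontal, log scale) against TPM in replicate 2 (vertical, log scale) for the 135 detected pseudogenes, coloured by the family of the source gene. The solid line marks equal levels and the dotted lines a 2-fold difference. The 4 highest points have mitochondrial sources, and the points spread most between 1 and 100 TPM.

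The highest members were nuclear copies of mitochondrial genes. Of 33 pseudogenes in the tables with a mitochondrial source, 6 were detected, all on the minus strand of chromosome 1 within 3791 bases, GRCm38 chr1:24612407-24616197. These 6 held 79.1% of the members' TPM in replicate 1 and 80.2% in replicate 2, and without them the members summed to 2853 and 3159 TPM. Gm28437, a copy of mt-Co3, which encodes a subunit of cytochrome c oxidase, had 4369 TPM in replicate 1 and 5684 TPM in replicate 2, against 10835 and 13051 TPM for mt-Co3. Gm28438, a copy of mt-Nd3 of respiratory complex I, had 3317 and 4358 TPM, against 2808 and 1694 TPM for mt-Nd3. It was the 1 member of the cluster above its source in both replicates, at an effective length of 57.2 nucleotides in replicate 1 and 57.7 in replicate 2. The next copies were lower than their sources in both replicates. Gm28661, a copy of mt-Co2, which encodes another subunit of cytochrome c oxidase, had 2272 and 2102 TPM, against 4666 and 3586 TPM for mt-Co2. Gm10925, a copy of mt-Atp6 of the ATP synthase, had 771 and 614 TPM, against 6291 and 7875 TPM for mt-Atp6. The remaining copies were far below their sources. Gm29216, a copy of part of mt-Co1, had 76.8 and 33.1 TPM, against 23570 and 23682 TPM for mt-Co1. Gm10222, a copy of mt-Nd4l of complex I, had 18.8 and 13.4 TPM, against 3260 and 3756 TPM for mt-Nd4l.

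Among the mitochondrial copies, those identical to their sources carried wide posterior estimates. The program also deposited a posterior mean count and its standard deviation, which shows how far the division of shared reads can vary. Gm28437, identical to mt-Co3 over its whole length, had a posterior mean count of 309063 ± 94122 in replicate 1 and 424391 ± 144085 in replicate 2 (posterior SD). Its expected counts, 227827 in replicate 1 and 311471 in replicate 2, lay below the posterior means. mt-Co3 carried the same posterior SD as Gm28437 in each replicate, 94122 and 144085. Gm10925 had posterior mean counts of 45928 ± 14976 and 45855 ± 15023, against expected counts of 31673 in replicate 1 and 26494 in replicate 2. Gm28438, with its single differing base, was better determined, at 20106 ± 631 in replicate 1 and 27841 ± 506 in replicate 2.

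Ribosomal proteins formed the largest family of known sources. Of 1479 pseudogenes in the tables with a cytosolic ribosomal protein source, 44 were detected, 29 from the large subunit and 15 from the small subunit, and they came from 38 source genes. They summed to 1621 TPM in replicate 1 and 1897 TPM in replicate 2. By mean TPM 16 lay under 5, 20 between 5 and 50 and 8 at 50 or more. The highest was Gm10275, a transcribed processed copy of Rpl12, at 455 and 510 TPM, against 63.1 and 67.4 TPM for Rpl12. Others were also above their sources in TPM, by smaller margins. Gm15500, a copy of Rpl5, had 210 and 192 TPM, against 52.2 and 61.1 TPM for Rpl5. Gm7536, a copy of Rpl27a, had 125 and 200 TPM, against 99.1 and 70.6 TPM for Rpl27a. Rpl31-ps8 had 51.5 and 57.5 TPM, against 49.3 and 52.5 TPM for Rpl31. In expected counts, not divided by length, Gm10275 and Gm15500 were also above their sources in both replicates, but the other copies were below. Gm7536 had 2039 and 3460 counts, against 8189 and 6561 for Rpl27a. Rpl31-ps8 had 485 and 574 counts, against 2349 and 2424 for Rpl31. In all, 5 ribosomal members lay above their source in TPM in both replicates, these 4 among them, while 24 lay 10-fold or more below it in both. Their sources encode structural proteins of the ribosome.

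For some ribosomal members the order of copy and source differed between replicates. Rps13-ps1 had 73.8 and 135.9 TPM, against 77.2 and 34.2 TPM for Rps13, so it lay below its source in replicate 1 and above it in replicate 2. Rpl23a-ps3 had 134 and 64.2 TPM, against 87.2 and 112.6 TPM for Rpl23a, the opposite order. A second copy of Rpl23a, Gm3362, had 26.5 and 33.5 TPM, below its source in both replicates. The source Rps2 had 4 detected copies, Rps2-ps10, Gm14276, Rps2-ps6 and Gm15626, which summed to 27.3 and 18.8 TPM, against 777 and 784 TPM for Rps2 itself. Rps4l, the diverged copy of the X-linked gene Rps4x, had 35.6 and 45.4 TPM, against 275 and 260 TPM for Rps4x. Its counts, 2456 in replicate 1 and 3289 in replicate 2, were whole numbers with a posterior SD of 0 in both.

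Copies of glycolytic enzymes followed, with 11 members of 262 in the tables. Gapdh, the glycolytic enzyme glyceraldehyde-3-phosphate dehydrogenase, was the source with most detected copies, 9 of 203 in the tables. The 9 copies summed to 108 TPM in replicate 1 and 96.5 TPM in replicate 2, against 1949 and 1762 TPM for Gapdh. In expected counts they held 8297 and 7806, against 209532 and 196721 for Gapdh, or 3.81% and 3.82% of the counts of Gapdh and copies together. Within this sum the order of the copies differed between replicates. Gm12671 had 44.8 TPM in replicate 1 and 20.1 TPM in replicate 2, while Gm10359 had 15.3 and 39.9 TPM. The M21 transcripts of Gm12671 and Gm10359 are identical to each other and to the coding sequence of Gapdh. Their expected counts were 3371 and 1592 for Gm12671 and 1151 and 3152 for Gm10359, so their sum was 4521 in replicate 1 and 4745 in replicate 2. Gm7336 had 30.2 and 20.1 TPM, and in replicate 2 its expected count, 1592, equalled that of Gm12671. The deposited TPM intervals of the replicates overlapped for each of the 3 copies. The posterior counts were wide, at 3241 ± 1458 in replicate 1 and 1777 ± 688 in replicate 2 for Gm12671, and at 1896 ± 1174 and 3105 ± 1026 for Gm10359.

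The copies that differ from Gapdh by single bases were lower and better determined. Gm5559 had 1.84 and 1.96 TPM, from posterior counts of 139 ± 17.5 in replicate 1 and 158 ± 20.8 in replicate 2. Gm12033 had 1.57 and 1.59 TPM, from posterior counts of 123 ± 25.0 and 131 ± 26.9. The copies Gm14760, Gm2606 and Gm12070 had between 1.25 and 3.59 TPM, and Gm2574 had 6.99 and 6.96 TPM. A further 2 members, 3000002C10Rik and Gm5069, matched predicted Gapdh-like genes best. With predicted genes left out as sources, 11 members of 356 pseudogenes in the tables matched Gapdh. Outside this set, Pgam1-ps2, a copy of phosphoglycerate mutase, had 43.2 and 40.0 TPM, against 83.4 and 73.6 TPM for Pgam1. Pgk1-rs7, a copy of phosphoglycerate kinase, had 35.9 and 30.1 TPM, against 215 and 191 TPM for Pgk1.

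**Figure D2:**
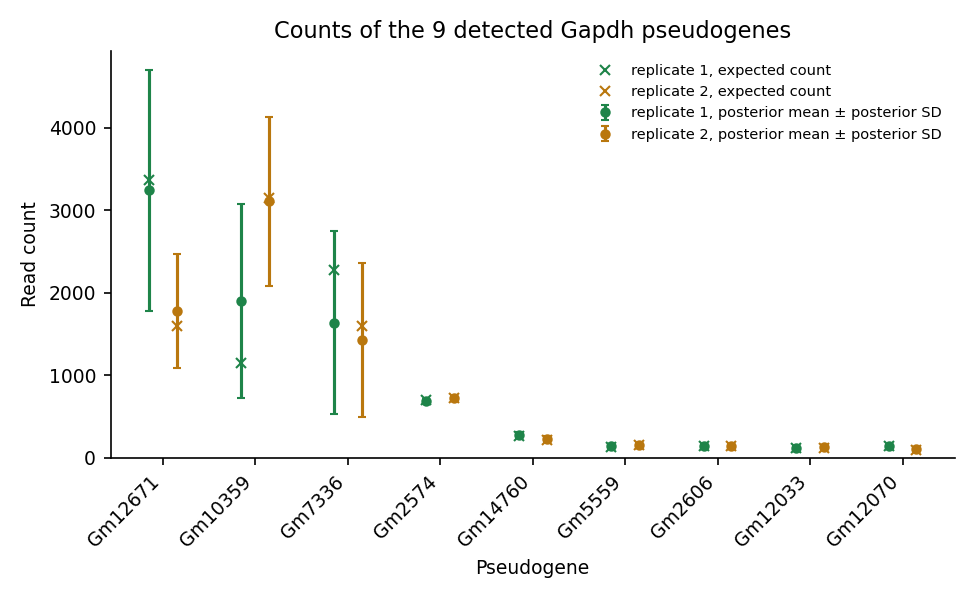
Read counts (vertical) of the 9 detected Gapdh pseudogenes, with points and bars for the deposited posterior mean ± posterior SD and crosses for the expected count, replicate 1 left of replicate 2 for each gene. Gm12671, Gm10359 and Gm7336 carry bars of 688 to 1458 counts, while the 6 others have narrow bars.

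Nuclear genes of oxidative phosphorylation were the source of 8 members of 124 in the tables. Ndufb4c, a copy of the complex I subunit Ndufb4, had 363 and 336 TPM, against 24.2 and 27.1 TPM for Ndufb4, and was the 1 member of this family above its source in both replicates. RefSeq lists Ndufb4c as protein-coding. Gm10221, matched to the ATP synthase subunit Atp5l, had 36.1 and 123.0 TPM, against 209 and 147 TPM for Atp5l. Gm10175 and Gm10231, both matched to Atp5g2, had 46.5 and 25.7 TPM and 29.5 and 19.9 TPM, against 244 and 310 TPM for Atp5g2. Gm2962, the copy of Uqcrb of respiratory complex III shown above, had 2.89 and 1.28 TPM from 15 and 7 counts, against 92.8 and 87.6 TPM for Uqcrb.

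The smaller families had few detected members. Most lay below their sources in both replicates, the exceptions being Hist3h2bb-ps and Gm8186, above in both, and Ube2d-ps, above Ube2d1 in replicate 2 alone with a match over 5.69% of its length. Translation factors were the source of 6 members of 107, from Gm13456, a copy of elongation factor Eef1a1, at 7.27 and 8.44 TPM, down to Gm11400, matched to Eef2, at 1.10 and 1.02 TPM. Histones and high mobility group proteins were the source of 5 of 253, led by Hist3h2bb-ps at 14.9 and 27.0 TPM, against 11.5 and 6.96 TPM for the histone gene Hist3h2ba. Chaperones gave 2 of 134, and Gm10123, a copy of the cyclophilin Ppia, had 64.3 and 58.2 TPM, against 613 and 599 TPM for Ppia. The actin and tubulin family gave 2 of 88, Gm15725 matched to Actb and Gm12715 to Actg1. The ubiquitin family gave 3 of 120, 1 of which, Gm7367, was placed there by the first letters of its source Ubald2. RNA-binding proteins gave 2 of 181, of which Gm8186 had 14.0 and 16.0 TPM, against 0.77 and 0 TPM for its match Snrpg. Snrpg had 5 and 0 expected counts. The match covered the M21 transcript of Gm8186, of 231 bases, but the deposited length of that gene is 386 bases. The ras and trafficking family gave 2 of 63, Gm13991 matched to Rab5b and Gm16574 to Rangap1. No member had a source in the lists of iron storage and redox proteins or of the cell cycle.

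The remaining 44 members, of 4991 such pseudogenes, came from 38 sources outside the lists. Gm10177, a copy of the translocon subunit Sec61g, led them at 54.8 and 19.7 TPM, against 14.0 and 13.9 TPM for Sec61g. Gm21092, 2610005L07Rik and 6820431F20Rik, on chromosome 8, matched the cadherin gene Cdh11 and summed to 23.2 and 36.2 TPM, against 8.80 and 8.99 TPM for Cdh11. The match covered 24.0% of 2610005L07Rik and 12.6% of 6820431F20Rik. It covered all of the M21 transcript of Gm21092, of 955 bases, but the deposited transcripts of that gene have 3828 and 4038 bases. Gm8783 and Gm15801 on chromosome 19 have identical transcripts, matched to the phosphatase gene Ptp4a1. Both had an expected count of 67.8 in replicate 1 and of 117 in replicate 2, hence the same 2.76 and 4.50 TPM. Their posterior counts differed, at 59.8 ± 39.6 and 114 ± 70.0 for Gm8783 and at 76.7 ± 40.6 and 121 ± 68.4 for Gm15801. Fabp3-ps1, a copy of the heart fatty acid binding protein gene Fabp3, had 9.08 and 22.7 TPM, against 538 and 1034 TPM for Fabp3. No source was found for Ppp4r1l-ps and B330016D10Rik.

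Detected members were closer to their sources in sequence than other pseudogenes were. Identity over the best match had a median of 99.7% for the 133 members with a match, against 90.7% for 7447 other pseudogenes. It reached 99% in 99 members, or 74.4% of those matched, against 10.8% of the others. For 32 members the match was identical over the full length. The sources were also higher, with a median of 139 TPM for members, against 12.1 TPM for other pseudogenes. Among 145 pseudogenes with both an identity of 99% or more and a source at 100 TPM or more, 60 were members, a share of 41.4%. Among 1370 with such a source and an identity under 95%, 5 were members, a share of 0.365%. Levels and identity were taken from different annotation releases. The deposited tables follow GENCODE M4, and for 60 of 135 members they hold a transcript of another length than M21 or more than 1 transcript. Among the 75 members with a single transcript of the same length in both, 60 had an identity of 99% or more.

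Members were lower than their sources in most cases. For 132 members with a source level, the median log2 difference, pseudogene minus source, was -3.68 in replicate 1 and -3.51 in replicate 2. The pseudogene was below its source in both replicates for 105, by 10-fold or more for 61, and above it in both for 16. Among 117 members whose match had 90% identity or more over at least 50% of the pseudogene, 13 lay above the source in both replicates, 97 below in both and 7 above in 1 replicate alone. The 13 include Gm21092 and Gm8186, whose M21 transcripts, used for the match, were shorter than the deposited ones. Besides the genes given above, the 13 included Mrpl23-ps1 at 22.1 and 22.6 TPM, against 20.7 and 21.9 TPM for the mitochondrial ribosomal protein gene Mrpl23. In expected counts Mrpl23-ps1 was the lower, at 680 and 732, against 879 and 981 for Mrpl23. Also among the 13 was Gm7334 at 3.76 and 3.29 TPM, against 1.89 and 0 TPM for Btg3. In fold over the source by TPM, which depends on length, Ndufb4c was at 15.0 and 12.4 in replicates 1 and 2. Gm10275 was at 7.21 and 7.57, and Rpl31-ps8 at 1.05 and 1.10.

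**Figure D3:**
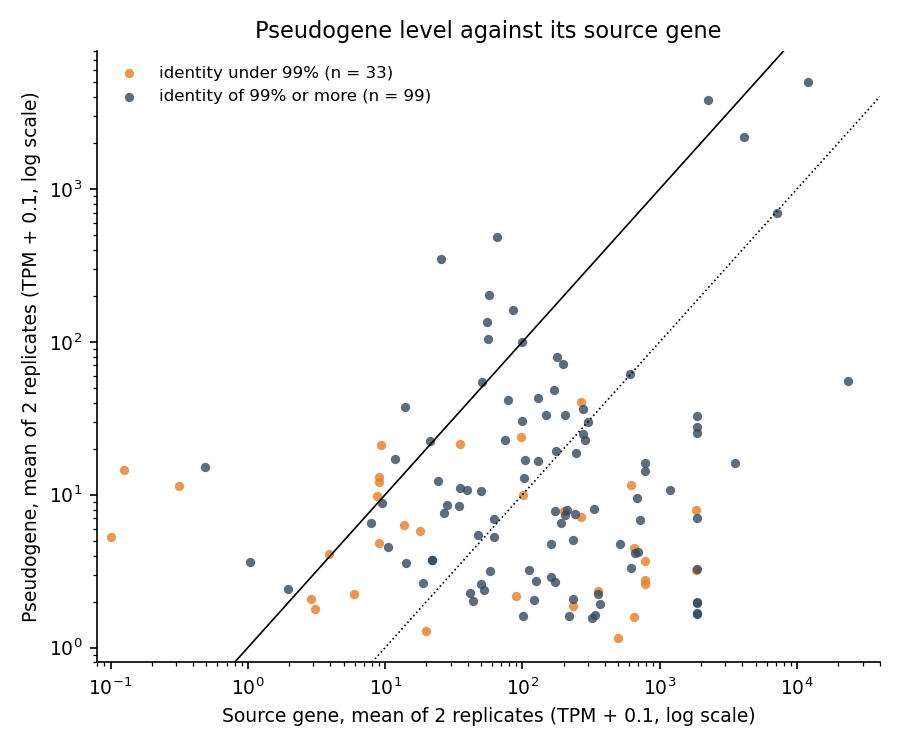
Mean TPM of 132 pseudogenes (vertical) against mean TPM of their source genes (horizontal), both plus 0.1 and on log scales, coloured by identity to the source. The solid line marks equal levels and the dotted line a pseudogene 10-fold lower. Most points lie below the solid line, and the points with a source under 1 TPM, at the left, lie above it.

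The posterior spread was larger for members than for detected protein-coding genes. It is given here as the posterior SD divided by the square root of the posterior mean count. A ratio of 1 equals the size of counting error, and 0 means that the estimated count did not vary. The median over members was 0.861 in replicate 1 and 0.833 in replicate 2, against 0 in both for detected protein-coding genes. The ratio exceeded 1 in both replicates for 49 members, or 36.3%, against 33 of 10112 detected protein-coding genes, or 0.326%. The posterior SD was 0 in both for 17 members, or 12.6%, against 91.3% of the protein-coding genes. Expected counts were whole numbers in both replicates for 14.1% of members, against 92.8% of the protein-coding genes. For 30 members the posterior SD was 10% of the posterior mean or more in both replicates.

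The spread moved with the share of sequence found elsewhere. Each member's M21 transcript was cut into overlapping windows of the length of a read, and windows present in the transcript of another gene were counted. The 13 members with no shared window had a median spread ratio of 0, the 86 with some shared windows 0.759, and the 36 with all windows shared 1.58. In the 75 members of the same length in both annotations the medians were 0, 0.868 and 1.84. The highest ratios were those of Gm28437, at 169 and 221, Gm10925, at 69.9 and 70.2, and Gm28661, at 58.6 and 57.3, followed by Gm7336, Gm10359 and Gm12671. Identity alone did not fix the ratio. Gm10275 and Ndufb4c, with 99.8% and 100% of windows shared, had ratios between 0.206 and 0.256 in both replicates. Rpl39-ps, with no shared window in its M21 transcript of 151 bases, had ratios of 2.57 and 2.19, and the deposited tables give it a length of 355 bases. Of the 17 members with a posterior SD of 0 in both replicates, 9 are annotated as transcribed. Of the same 17, 1, Gm8186, had an identity of 99% or more, in an M21 transcript shorter than its deposited length.

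**Figure D4:**
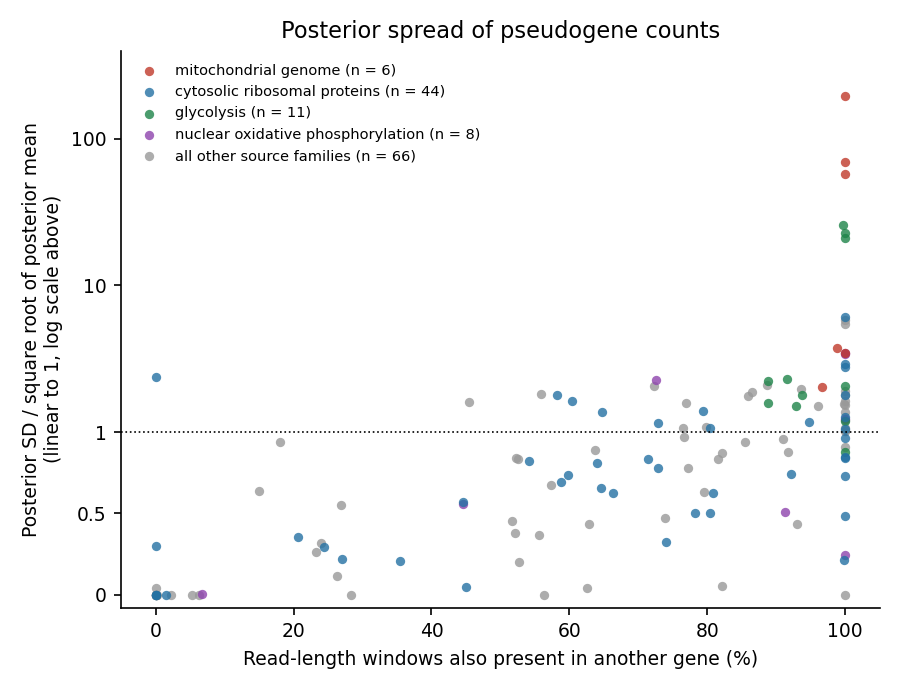
Posterior SD over the square root of the posterior mean count, averaged over 2 replicates (vertical, linear up to 1 and on a log scale above), against the percent of read-length windows of each of 135 pseudogenes that another gene also holds (horizontal). The dotted line marks a ratio of 1. Ratios above 5 occur at or near 100% shared windows.

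Between the replicates, 35 members differed by 2-fold or more, a share of 25.9%, with 19 higher in replicate 1 and 16 higher in replicate 2. Among all genes with a mean TPM of 1 or higher the share was 19%, with 8.9% higher in replicate 1 and 10.1% higher in replicate 2. Among genes at 1 TPM or more in both replicates, the condition the members also meet, it was 12.7%. The difference is log2 of TPM plus 0.1, centred on the median of the same genes with a mean TPM of 1 or higher. Its median absolute size was 0.47 over members, against 0.35 over detected protein-coding genes. Across genes, which are not independent replicates, Pearson's r of log2 TPM between replicates was 0.90 over members, against 0.92 over detected protein-coding genes. The deposited TPM intervals of the replicates did not overlap for 66 members, or 48.9%, against 71.4% of all genes at 1 TPM or more in both. Of the 35 members past 2-fold, 32 had intervals that did not overlap, with no such count made for other genes past 2-fold.

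Except for 3110053B16Rik, whose match was near 0 TPM, the members with the largest differences had sources that differed by less than 2-fold. Gm6055, the copy of the autophagy gene Map1lc3b with a single differing base, had 19.2 TPM in replicate 1 and 1.86 TPM in replicate 2, a log2 difference of 3.32, from 181 and 18.6 expected counts. Map1lc3b itself had 49.8 and 49.1 TPM. Gm4459, a copy of the complex I gene Ndufab1, had 9.60 and 1.11 TPM, against 47.5 and 47.4 TPM for Ndufab1. Both sources were nearly equal between replicates. Gm9797, matched to the mitochondrial import gene Timm8a1, had 7.82 and 1.13 TPM, against 7.70 and 13.1 TPM for Timm8a1. Rpl15-ps3 had 56.9 and 8.99 TPM, against 132 and 165 TPM for Rpl15. The 5th of those higher in replicate 1, 3110053B16Rik, had 23.3 and 5.64 TPM, with a posterior SD of 0 in both replicates. Its match, 9030624G23Rik, covered 36.7% of its length and had 0 and 0.05 TPM, too low for a fold difference. In these 5 members the deposited intervals of the replicates did not overlap.

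Members with large differences in the other direction included copies of ribosomal or related proteins and 1 of a mitochondrial carrier. Gm9843, a copy of Fau, which encodes a ubiquitin-like protein fused to a ribosomal protein, had 8.41 TPM in replicate 1 and 88.4 TPM in replicate 2, against 160 and 180 TPM for Fau. Mpc1-ps, a copy of the mitochondrial pyruvate carrier gene Mpc1, had 3.26 and 33.9 TPM from 15.2 and 165 counts, against 229 and 260 TPM for Mpc1. Copies of ribosomal protein genes were likewise low in replicate 1 while their sources were close between replicates. Rpl39-ps had 3.07 and 18.2 TPM, against 38.1 and 40.5 TPM for Rpl39. Rps6-ps4 had 11.8 and 47.4 TPM, against 320 and 279 TPM for Rps6.

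Of 29 members past 2-fold with a match of 90% identity over at least 50% of their length, 1 had a source that also differed by 2-fold in the same direction. That pair was Gm7367, at 17.9 and 6.51 TPM, and Ubald2, at 37.1 and 11.5 TPM. In 13 of the 29 the source had a difference of the opposite sign, counted at any size and not at 2-fold. Among all genes at 1 TPM or more in both replicates, 12.7% differed by 2-fold in either direction. The median absolute log2 difference was 1.49 for the 29 members and 0.15 for their sources. The 29 were chosen for a difference of 2-fold or more, and their sources were not. The median of the members was therefore fixed past 2-fold, and the contrast with the sources cannot be read as a result. With the counts of pseudogene and source added together the median absolute difference was 0.09, and 1 of the 29 pairs remained past 2-fold. The source holds most of the counts in most pairs, so the sum follows the source by construction. The 49 members with a spread ratio over 1 in both replicates had a median absolute difference of 0.56, against 0.44 for the 17 with a posterior SD of 0. Past 2-fold the order was reversed, with 11 of the 49 and 5 of the 17, the larger share being that of the 17. The share was 25.9% over all members and 12.7% over all genes at 1 TPM or more in both replicates. By windows, the order of the medians was also reversed, with a median absolute difference of 0.48 for the 36 members with all windows shared, against 0.59 for the 13 with none. Whether the division of reads or transcription of the copies underlies these differences was not tested.

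**Figure D5:**
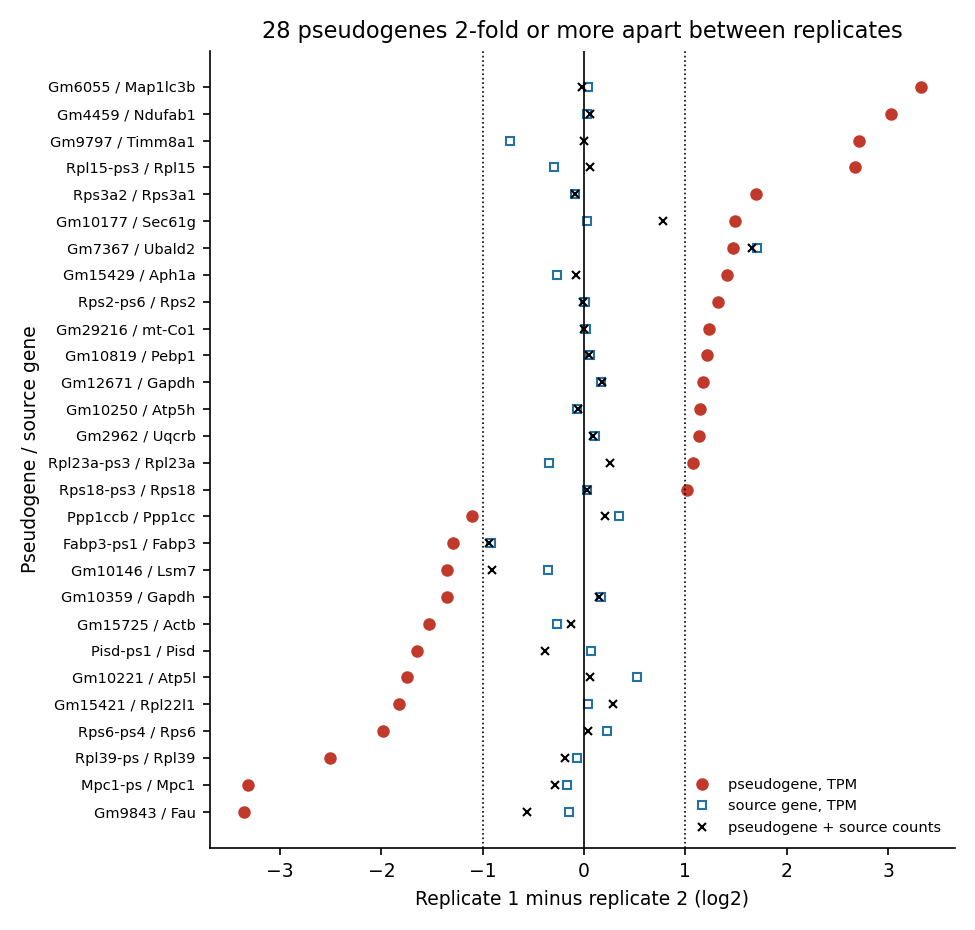
Log2 difference, replicate 1 minus replicate 2, for 28 of the 29 pseudogenes that differed by 2-fold or more and had such a match (filled points), for their source genes (open squares) and for the summed counts of each pair (crosses), 1 pair per row. The pseudogenes lie beyond the dotted lines at 2-fold because they were chosen so. The sources and sums, not chosen by their differences, lie within the lines except for Gm7367 and its source Ubald2.

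The members lie on 20 chromosomes, and 119 of them overlap no protein-coding gene on the same strand. In 11 cases the member lies in an intron of such a gene and in 5 its exons overlap those of one. Among the 11, 5 members were above the host gene in both replicates and 6 below it in both. Ndufb4c and Gm4459 lie in genes, Mroh5 and Cfap46, that were at 0 in both replicates. Gm15626, in an intron of Tecrl, had 2.90 and 2.44 TPM, against 11.4 and 16.3 TPM for Tecrl. Gm15725, whose exons overlap those of Lrrc58, had 5.78 and 17.2 TPM, against 18.0 and 15.2 TPM for Lrrc58. The part that reads of the host gene have in the levels of these 16 members was not tested. RefSeq classes were found for 120 members, of which 89 were pseudogenes, 23 transcribed pseudogenes, 4 long noncoding RNAs, 1 another RNA and 3 protein-coding genes, Ndufb4c and Ppp1ccb among them.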

How the data were processed

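Total RNA of newborn hearts was quantified by the authors with a program whose column names are those of RSEM, against mm10 and GENCODE M4, per the file headers and notes. No aligner or program version is named in the labels or files. The deposited expected counts estimate how many fragments each gene gave and are not normalized. The deposited transcript tables also give each transcript's percent of its gene's TPM. The deposited FPKM values divide the expected counts by effective length and scale by library total. The deposited TPM values scale the length-divided counts so that every library has the same sum. The authors also deposited posterior mean counts with their standard deviations, posterior TPM and interval bounds.

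Genes were matched by identifier to GENCODE M21 on GRCm38. RefSeq classes came from a gene table of GRCm38.p6, for names only. Sources were found with blastn 2.17.0 (sense strand, expect value up to 1e-10, hits to a gene at the same locus removed) against protein-coding transcripts, in Python 3.11.15 with pandas 2.3.3. A difference of 2-fold between replicates was counted on log2 of TPM plus 0.1. In 1 alternative, rounded counts were scaled by TMM with edgeR 4.0.16 (R 4.3.3). Fold calls and the source search were tested on simulated data. The 30 planned and 5 added alternatives changed thresholds, pseudocount, scaling, estimate, source choice and replicates.

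Named genes were the 20 highest members, up to 3 per family and gene type, the 5 largest differences in each direction at 100 summed counts, the 5 highest and lowest spread ratios, the 3 genes on each side of the threshold, and their sources. Gm10222, Gm10231, Gm3362, Gm21092, 6820431F20Rik, Gm8783, Gm15801, Fabp3-ps1, Gm2962, Gm7334, the single Gapdh copies and other members shown are not named by the rule, and their choice came after their values were known. Results of some genes are not reported here. The members and lists were chosen with earlier results of these data known. The replicates are separate tissue isolates per the labels, and the spread between them covers 2 pools only.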

Additional observations from a re-analysis of the deposited data

How the results depend on the processing

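The count of 135 detected pseudogenes lay between 190 and 194 with 1 replicate alone, fell to 69 at a threshold of 5 TPM, and was 592 on the posterior mean TPM. The other 6 alternatives gave 102 to 173. The 35 members past 2-fold (19 higher in replicate 1, 16 higher in replicate 2) became 9 (5 and 4) at 4-fold, where the share of all genes was 5.56%. On the summed counts of pseudogene and source, an alternative chosen after seeing the data, 5 pairs (4 and 1) were past 2-fold, 3 of them with a member among the 35. The other 8 alternatives gave 27 to 34. Of 132 values for 22 named members past 2-fold under 6 settings, 128 stayed past 2-fold in the same direction and 4 did not, Gm12671 and Gm10359 on posterior mean TPM and B330016D10Rik and Gm15429 with a pseudocount of 1. The median spread ratio of 0.849 lay between 0.833 and 0.861 in single replicates and was 0.874 in the 103 members with at least 100 posterior counts. The width of the TPM interval over the posterior mean TPM, another measure, was 0.340 for members, against 0.126 for detected protein-coding genes. The median log2 difference from the source, -3.49 over the replicate means, lay between -3.68 and -3.51 in single replicates. It was -3.35 with a pseudocount of 1, -3.92 for the closest matches, -4.51 for the 31 members whose symbol names a source, and -4.95 on counts not divided by length. The cause of these shifts was not tested. No paired analysis was possible because there is 1 group, so the replicate numbers pair nothing.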
